A study of Mus musculus with 18 samples.

Results

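The genes described here are 40 that serve DNA replication and cell division, of 18349 genes in a table of colon expression from mice after experimental colitis. They were taken from a list of proliferation genes and found in the table by the NCBI mouse gene identifier of each symbol. The search did not use their values, but the list was chosen with earlier results of these data known. All 40 were present, 16 of them S-phase genes and 24 mitotic genes. RNA of whole colon from male C57BL/6 mice was sequenced in 18 libraries of 5 groups, and the labels give the same wild-type mouse genotype to all. Control mice (n = 3) were fed normally with no colitis agent. The 4 other groups had 2.5% dextran sulfate sodium (DSS), which injures the colonic epithelium, in place of drinking water for 7 days. Daily gavage at 200 µL per 10 g of body weight followed for 5 weeks. The DSS group (n = 3) was given phosphate-buffered saline, and the WT group (n = 4) Lactobacillus plantarum ZJ316. The KO group (n = 4) was given ZJ316-KO and the COM group (n = 4) ZJ316-COM. These 3 group names thus refer to bacteria given after DSS, and the meaning of ZJ316-KO and ZJ316-COM is not spelled out in the labels. The libraries are numbered but not tied to separate animals, so p-values measure the spread between these samples, which may be technical. Levels are FPKM, a read abundance that takes account of transcript length and library size, and the number of reads behind them is unknown.

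In the colon, cells divide in the lower crypt, where stem cells and their rapidly cycling progeny lie, and stop dividing as they move toward the surface. A cell entering S phase loads the Mcm2-7 helicase onto DNA and switches on enzymes that make nucleotides, under E2F transcription factors. Later, cyclin B with Cdk1 drives mitosis, and the anaphase-promoting complex ends it by destroying cyclin B and other proteins. Genes of the first wave are known for E2F sites in their promoters, and genes of the later wave for a CCAAT box and a cell cycle homology region (CHR element), which B-Myb, FoxM1 and the DREAM complex use.

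The promoter sequences of both waves are shown first because S-phase and mitotic members differ in their motifs, a property that does not come from expression. In the RefSeq promoter table (GRCm38.p6), 14 S-phase members had 15 windows and 19 mitotic members had 19, each from 250 bases before to 50 after a start. Mcm4, Gins2, Ccna2, Aurkb, Kif20a, Tpx2 and Foxm1 had none in that table. Both strands were searched for the CHR element (TTTGAA or TTCGAA), the CCAAT box (CCAAT) and the E2F site (TTGGCGC or TTCCCGC). In the stretches of 170 bases printed here, which end at the base before the gene and are written 5′ to 3′ on its strand, capitals mark these motifs. The mitotic members Cdk1, Ccnb2, Mki67 and Cdkn3 carry CHR elements and CCAAT boxes: Cdk1 (chr10:69352913-69353082, minus strand), the kinase that drives mitosis, Ccnb2 (chr9:70421555-70421724, minus strand), one of its cyclins, Mki67 (chr7:135716451-135716620, minus strand), which coats mitotic chromosomes, and Cdkn3 (chr14:46760291-46760460, plus strand), a phosphatase of cyclin-dependent kinases.
Cdk1: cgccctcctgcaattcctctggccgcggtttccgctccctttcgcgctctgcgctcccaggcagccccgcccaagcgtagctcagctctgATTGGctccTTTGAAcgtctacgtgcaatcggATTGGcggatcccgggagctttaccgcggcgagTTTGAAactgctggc
Ccnb2: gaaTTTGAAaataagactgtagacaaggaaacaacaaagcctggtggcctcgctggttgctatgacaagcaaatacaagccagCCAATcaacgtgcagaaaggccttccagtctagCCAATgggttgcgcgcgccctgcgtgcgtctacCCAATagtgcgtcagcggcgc
Mki67: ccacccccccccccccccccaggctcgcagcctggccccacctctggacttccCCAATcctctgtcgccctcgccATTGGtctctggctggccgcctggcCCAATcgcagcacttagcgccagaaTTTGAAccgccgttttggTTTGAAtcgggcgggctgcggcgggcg
Cdkn3: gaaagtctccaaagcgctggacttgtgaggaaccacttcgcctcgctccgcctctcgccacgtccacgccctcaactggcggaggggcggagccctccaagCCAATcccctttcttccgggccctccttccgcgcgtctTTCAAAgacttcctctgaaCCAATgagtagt

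The S-phase members Mcm5, Mcm6 and Rrm1 carry E2F sites: the helicase subunits Mcm5 (chr8:75109298-75109467, plus strand) and Mcm6 (chr1:128359706-128359875, minus strand), and Rrm1 (chr7:102441525-102441694, plus strand), the large subunit of ribonucleotide reductase.
Mcm5: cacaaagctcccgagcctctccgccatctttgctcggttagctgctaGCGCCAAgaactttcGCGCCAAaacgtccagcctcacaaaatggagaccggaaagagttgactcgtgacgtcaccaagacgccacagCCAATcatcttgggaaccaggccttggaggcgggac
Mcm6: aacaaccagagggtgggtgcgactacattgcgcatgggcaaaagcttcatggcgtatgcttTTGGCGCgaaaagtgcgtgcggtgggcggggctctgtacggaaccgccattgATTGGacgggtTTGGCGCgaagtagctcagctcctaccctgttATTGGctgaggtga
Rrm1: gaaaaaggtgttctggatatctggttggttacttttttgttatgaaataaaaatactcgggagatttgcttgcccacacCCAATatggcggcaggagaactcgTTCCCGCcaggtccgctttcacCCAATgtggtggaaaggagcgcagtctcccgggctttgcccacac

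In Mki67 the CHR elements began 45 and 27 bases before the gene, and in Cdkn3 the CHR element began 31 bases before it. In Ccnb2 the printed CHR element began 167 bases before the gene, ahead of its CCAAT boxes. Another CHR element of the Ccnb2 window began after the start, past the printed stretch. In Mcm5 the E2F sites began 123 and 108 bases before the gene, and in Mcm6 109 and 46 bases. A CHR element was found in 78.9% of the windows of mitotic members, in 13.3% of those of S-phase members and in 15.3% of the 18016 windows of all genes in the table. An E2F site was found in 53.3% of S-phase windows (Cdc6, Cdt1, Mcm3, Mcm5, Mcm6, Mcm7 and Rrm1), in 15.8% of mitotic windows (Ccnb1, Cdk1 and Mki67) and in 10.0% of all. The CCAAT box was in 89.5% of mitotic, 60.0% of S-phase and 37.6% of all windows. Both a CHR element and a CCAAT box were in 78.9% of mitotic windows and 6.34% of all. CCAAT boxes and E2F sites overlapped in 2 member windows. In the further gene lists described later, 68.5% of 54 windows of other mitotic genes held a CHR element and 52.4% of 42 windows of other S-phase genes an E2F site. These are matches of letters and show no binding.

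**Figure D1:**
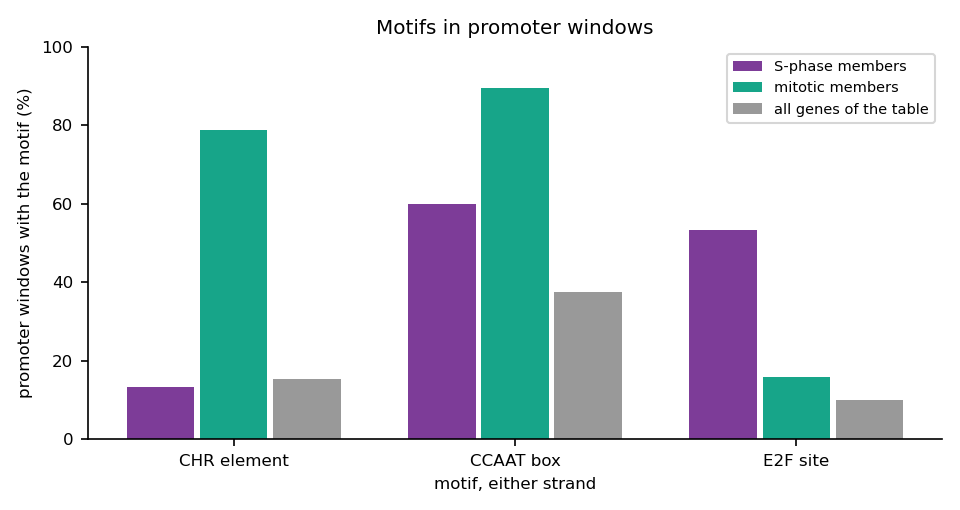
Share of promoter windows (%) with each motif on either strand, for S-phase members (15 windows), mitotic members (19 windows) and all genes of the table (18016 windows). CHR elements were in 78.9% of mitotic windows, and E2F sites in 53.3% of S-phase windows.

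Several libraries stood apart in genes other than these. Epithelial markers, all 10 of them in the table, had a mean log2(FPKM + 1) of 8.18 to 8.70 in the 18 libraries, as for epithelial tissue. Acinar pancreas markers lay at 8.64 to 11.1 in DSS 1, DSS 3 and KO 3 and at most at 1.31 elsewhere. Squamous epithelium markers lay at 1.86 to 3.12 in DSS 2, WT 2, WT 4, KO 3 and COM 3 and at most at 0.91 elsewhere. Hox genes of the distal gut had means of 1.94 to 2.73 in Control 3, KO 2 and DSS 3 and of 3.28 to 3.92 elsewhere. Single Hox genes went opposite ways. Hoxd13 measured 0, 1.71 and 6.67 FPKM in Control 3, KO 2 and DSS 3 and 29.3 to 110.5 elsewhere. Hoxb13 measured 0.76 FPKM in Control 3 and 79.3 in KO 2. Hoxb9 (50.6 FPKM) and Hoxd8 (5.23 FPKM) were highest in Control 3, and Hoxa10 (31.8 FPKM) in KO 2. What part these differences have in the results was not tested beyond leaving the libraries out.

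The Control libraries also disagreed among themselves in the cell cycle genes. The mean log2(FPKM + 1) over the 16 S-phase members was 4.10 in Control 1, 3.32 in Control 2 and 3.11 in Control 3. Over the 24 mitotic members it was 4.22, 3.52 and 3.50. Control 1 was thus the highest and Control 2 and Control 3 were the lowest of all 18 libraries on both lists. In bulk tissue, fewer dividing cells and less RNA per dividing cell cannot be told apart.

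Gene by gene the same split appeared. Control 1 exceeded Control 2 and Control 3 in 39 of 40 members, Cenpa being the exception, against 39.5% of all 13263 genes tested. It held the highest value of all 18 libraries in 16 of 40 members, against 8.29% of all tested genes. Control 2 and Control 3 both lay below all 16 other libraries in 26 members (65.0%, against 8.92%), 9 of them S-phase and 17 mitotic. The median difference of Control 1 from the mean of Control 2 and Control 3 was 0.78 on the log2 scale over the members and 0.05 over all tested genes. The median SD within Control was 0.463 over the members and 0.183 over all tested genes. In the other groups it was 0.107 (DSS) to 0.147 (COM) over the members, close to the 0.101 to 0.127 of all tested genes. Other marker lists moved within Control as well. Differentiated colonocyte markers had means of 8.58, 9.09 and 9.15 in Control 1, 2 and 3, crypt stem and progenitor markers 3.56, 3.53 and 3.46, and B cell markers 3.05, 3.29 and 0.60. Single colonocyte markers went opposite ways. Car1 measured 2055, 1163 and 15636 FPKM in Control 1, 2 and 3 and Guca2a 926, 2618 and 4362. Slc26a3 measured 615, 648 and 137 FPKM and Car4 1869, 1833 and 576. Germinal centre B cell markers, from another dividing cell type, had means of 1.94, 1.77 and 1.26. Their part in the split was not tested.

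**Figure D2:**
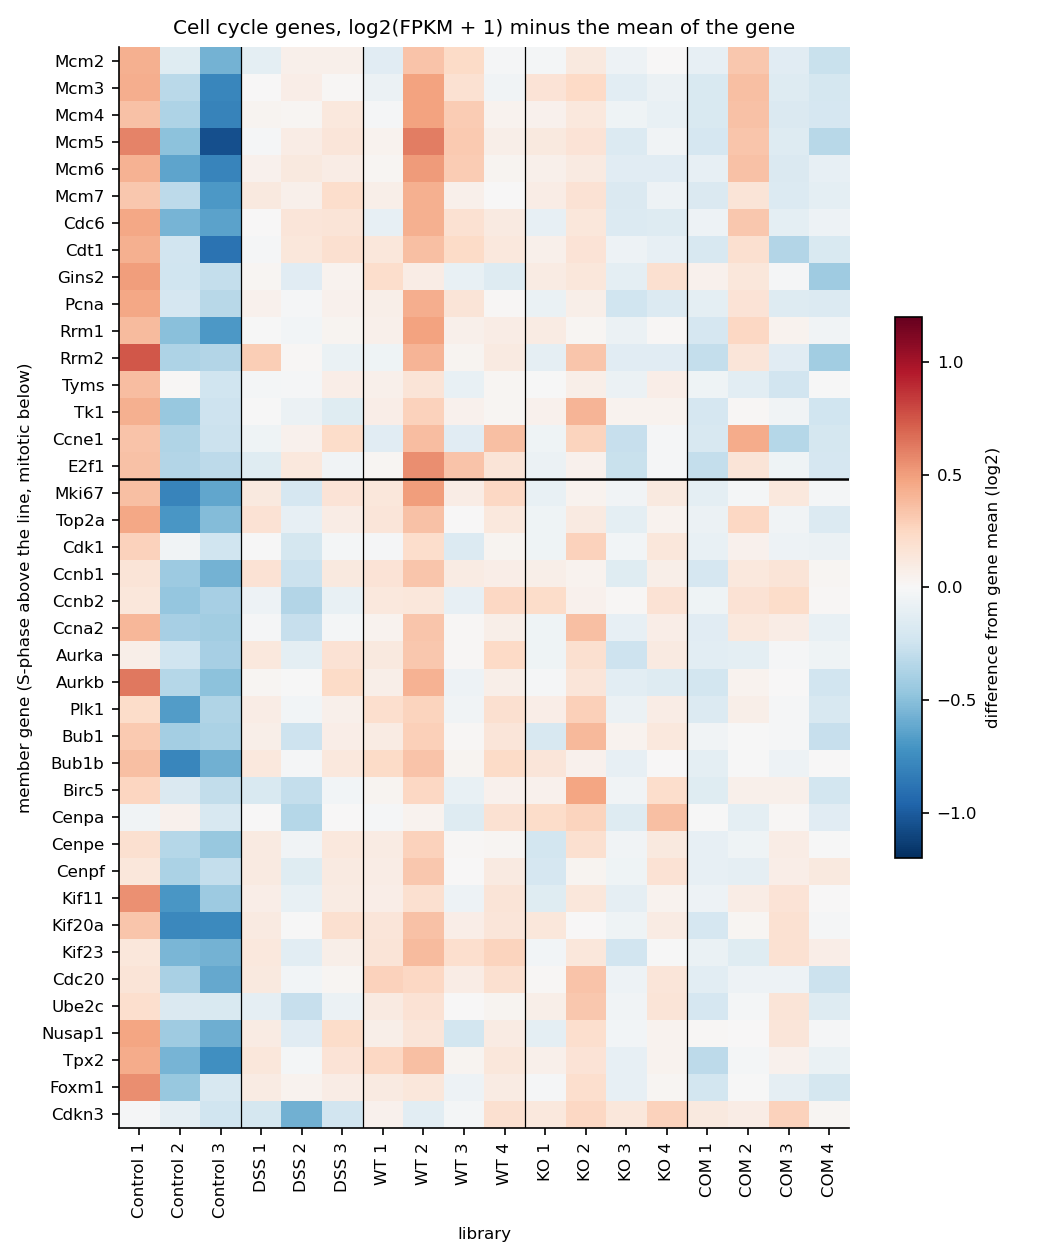
Log2(FPKM + 1) of each of the 40 members minus the mean of that gene over the 18 libraries, with S-phase members above the line and mitotic members below. Control 2 and Control 3 are the lowest columns, Control 1 and WT 2 the highest, and Cdkn3 at the foot is low in the DSS group instead.

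Outside Control the groups lay closer together. The S-phase mean was 3.68 to 3.74 in DSS, 3.68 to 4.07 in WT, 3.53 to 3.83 in KO and 3.47 to 3.89 in COM. The mitotic mean was 3.78 to 4.01 in DSS, 3.93 to 4.20 in WT, 3.87 to 4.14 in KO and 3.83 to 4.01 in COM. The ranges of all 4 groups overlapped each other on the mitotic list, and those of DSS, WT, KO and COM all overlapped on the S-phase list. Library WT 2 held the highest value of all libraries in 14 members, 7 of each list, and KO 2 in 6, all mitotic.

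**Figure D3:**
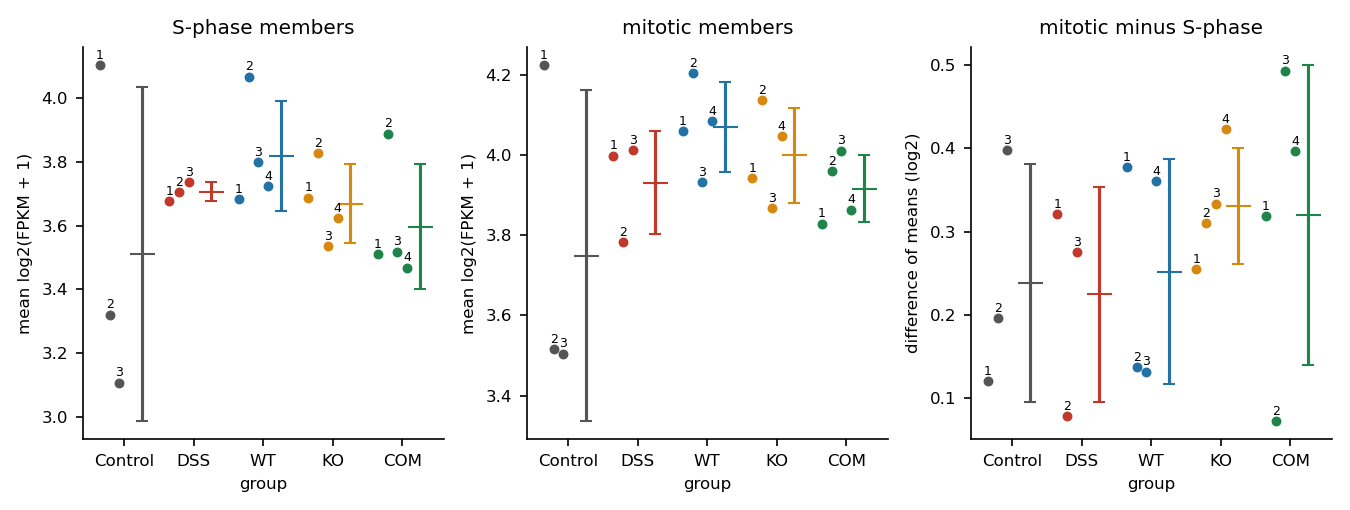
Mean log2(FPKM + 1) over the 16 S-phase members (left) and 24 mitotic members (middle), and the difference of the means (right), per library. Points are libraries with their replicate number, and bars are the group mean with its SD. Control 1 lies above and Control 2 and 3 below all other libraries in the first and second panels.

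Of the S-phase members that license replication, Mcm5 (chr8:75109468-75128439), a subunit of the helicase, had the widest range of all 40 members, 3.61-fold. It measured 18.6, 8.24 and 5.25 FPKM in Control 1, 2 and 3, 11.85 to 13.4 in DSS, 12.4 to 18.95 in WT, 10.6 to 13.6 in KO and 9.31 to 15.4 in COM. The fellow helicase subunit Mcm6 measured 34.6, 16.2 and 14.4 FPKM in Control and 22.6 to 36.9 in the 15 other libraries. In both genes Control 2 and Control 3 lay below every other library, as they also did in Mcm3, Mcm4 and Mcm7. Mcm2 was the exception of the 6 helicase subunits, because COM 4 (9.57 FPKM) lay below Control 2 (10.5 FPKM). The helicase loaders Cdc6 and Cdt1 measured 4.34, 1.62 and 1.47 FPKM and 12.1, 7.32 and 4.28 FPKM in the Control libraries. The median S-phase member spanned 2.35-fold from its lowest to its highest library.

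Pcna, the sliding clamp of the replication fork, was the most abundant S-phase member, with a mean of 95.8 FPKM over all libraries. It measured 131, 82.3 and 75.0 FPKM in Control 1, 2 and 3 and 79.9 to 129 in the others, so that the low Control libraries stood out less. Of the nucleotide supply genes, the ribonucleotide reductase subunit Rrm2 measured 19.2, 8.30 and 8.41 FPKM in Control and 8.02 to 14.99 elsewhere. Tyms, which makes thymidylate, varied least of the S-phase members, from 7.82 FPKM in Control 3 to 12.4 in Control 1. E2f1, a transcription factor of the G1 to S transition, was the least abundant, with a mean of 2.76 FPKM. Its values were 3.73, 1.91 and 1.97 FPKM in Control and 2.03 to 4.45 in the other groups, with WT 2 the highest.

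Mitotic members spanned less, with a median of 2.00-fold between lowest and highest library. Ube2c, the ubiquitin-conjugating enzyme of the anaphase-promoting complex, was the most abundant (mean 81.5 FPKM) and Cenpf, a kinetochore protein, the least (3.80 FPKM). Mki67 (chr7:135689784-135716450), the gene of the proliferation antigen Ki-67, measured 44.7, 19.6 and 22.1 FPKM in Control 1, 2 and 3, 30.0 to 38.96 in DSS, 36.8 to 49.3 in WT, 32.5 to 37.7 in KO and 31.7 to 37.8 in COM. Top2a, which untangles chromosomes, measured 39.7, 17.1 and 19.45 FPKM in Control and 25.2 to 36.6 in the other groups. In both genes 1 Control library lay near the top of all libraries and Control 2 and Control 3 lay at the bottom. Cdk1 was flatter, at 11.6, 9.10 and 7.86 FPKM in Control and 7.99 to 11.6 elsewhere. Cenpa, the centromeric histone, did not follow the Control split, at 14.3, 15.3 and 12.7 FPKM, and was lowest in DSS 2 (11.4 FPKM).

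In all, 10 members share genomic positions with another gene of the table, and the strand setting of the counting is not known, so reads may have been shared. These are Mcm7, Gins2, Tk1, E2f1, Ccna2, Aurka, Kif20a, Cdc20, Nusap1 and Foxm1.

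The first comparison asks how the colon after DSS and saline gavage differed from untreated colon. With limma across all 13263 tested genes and Benjamini-Hochberg adjustment, 0 of 40 members passed an adjusted p of 0.05 in DSS against Control, where 16.9% of all tested genes were called, 11.6% higher and 5.31% lower. At an unadjusted p under 0.05, 4 members were higher, against 21.1% of all tested genes. The smallest p values belonged to the mitotic kinesins Kif20a (log2 fold change of FPKM + 1 of 0.50 ± 0.21 SE, adjusted p = 0.105) and Kif23 (0.35 ± 0.15, adjusted p = 0.124). The median over the members was 0.23, against 0.05 over all tested genes. The widest interval reached from -0.23 to 1.01 (Mcm5), so that a difference of 1 on the log2 scale lay within it.

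After ZJ316 gavage, 7 members were called higher than in Control and none lower, all 7 of them mitotic. Of all tested genes 23.1% were called, 14.7% higher and 8.35% lower, so 7 of 40 is near the background. With quantile normalization the split over all tested genes was 10.7% higher and 11.2% lower, and 3 members were called. Markers of other cell types also differed in WT against Control. All 8 tested macrophage markers were higher without overlap (Ms4a7 1.48 ± 0.20, adjusted p = 0.00047). So were all 8 fibroblast markers (Dcn 1.45 ± 0.23, adjusted p = 0.00088), and 6 of 9 smooth muscle markers were lower (Des -0.74 ± 0.14, adjusted p = 0.00204). A further macrophage marker, Cd163, was too low to be tested. It measured 1.17, 0.59 and 0.53 FPKM in Control and 0.28 to 0.93 in WT. The macrophage mean log2(FPKM + 1) was 3.35, 2.99 and 2.19 in Control 1, 2 and 3 and 3.91 to 4.20 in WT, the fibroblast mean 4.20 to 4.71 and 5.35 to 5.76, and the smooth muscle mean 7.38 to 7.58 and 6.85 to 7.20. In DSS the macrophage and fibroblast markers called higher were 8 of 8 tested each, in KO 0 and 6, and in COM 7 and 6. Their part in the levels of the cell cycle genes was not tested. Kif23 (chr9:61917277-61946810), a kinesin of the central spindle that cytokinesis needs, measured 13.4, 7.98 and 7.82 FPKM in Control and 13.54, 16, 14.01 and 14.8 in WT 1 to 4. It was the only member whose groups did not overlap in this comparison, with Control 1 just below WT 1 (17.1% of all tested genes were higher without overlap). Kif23 rose by 0.58 ± 0.14 (adjusted p = 0.0112). Cdc20, which activates the anaphase-promoting complex, measured 20.7, 13.9 and 11.7 FPKM in Control and 22.5, 22.2, 19.6 and 21.3 in WT. WT 1, WT 2 and WT 4 exceeded Control 1 and the groups overlapped by 1 library. Cdc20 rose by 0.48 ± 0.14 (adjusted p = 0.0205).

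The other 5 that rose in WT were Mki67 (0.60 ± 0.20, adjusted p = 0.0404), the kinesin Kif20a (0.58 ± 0.19, adjusted p = 0.0406), the spindle checkpoint kinase Bub1b (0.54 ± 0.18, adjusted p = 0.0419), cyclin B1 (Ccnb1, 0.45 ± 0.15, adjusted p = 0.0391) and the centrosomal kinase Aurka (0.36 ± 0.12, adjusted p = 0.0385). In each of these, Control 1 lay within or above the WT range. Bub1b measured 10.9, 4.38 and 5.21 FPKM in Control and 8.51 to 10.8 in WT, and Aurka 12.04, 9.51 and 8.44 FPKM against 11.6 to 14.5. Plk1 (0.43 ± 0.15, adjusted p = 0.0534) and Ccnb2 (0.35 ± 0.13, adjusted p = 0.0611) came next and did not pass. No S-phase member passed, although the median S-phase log2 fold change, 0.36, was no smaller than the mitotic one, 0.31. Within Control the S-phase members had the larger gap between Control 1 and the other Control libraries, with a median of 0.88 against 0.70. Whether this gap bears on the calls was not tested.

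In KO against Control, limma called 0 members, where 5.14% of all tested genes were called, 3.69% higher and 1.46% lower. At an unadjusted p under 0.05, 5 members were higher (13.3% of all tested genes) and 0 lower (7.83%). In COM against Control, limma also called 0 members, where 7.6% of all tested genes were called, 5.26% higher and 2.34% lower. At an unadjusted p under 0.05, 3 members were higher (15.5% of all tested genes) and 0 lower (9.05%). Cdkn3 was the 1 member higher without overlap in each, against 8.07% of all tested genes in KO and 10.8% in COM, and 0 members were lower without overlap, against 5.07% and 5.87%. In KO the smallest p values were those of Cdkn3 (0.32 ± 0.10, adjusted p = 0.072) and Cdc20 (0.39 ± 0.14, adjusted p = 0.113). In COM they were those of Ccnb2 (0.33 ± 0.13, adjusted p = 0.122) and Cdkn3 (0.25 ± 0.10, adjusted p = 0.126). The mean of the 4 DSS-treated groups exceeded Control in 3 members, against 13.8% of all tested genes: Kif23 (0.39 ± 0.12, adjusted p = 0.0306), Kif20a (0.48 ± 0.16, adjusted p = 0.0436) and Cdc20 (0.34 ± 0.11, adjusted p = 0.0463). Ccnb1 (0.34 ± 0.12, adjusted p = 0.0625) and Bub1b (0.40 ± 0.15, adjusted p = 0.07) did not pass.

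All of these counts rested on which Control libraries were used. Without Control 1, 24 members were called higher in DSS (18.3% of all tested genes), 32 in WT (21.9%), 26 in KO (8.06%) and 20 in COM (11.5%). The S-phase members among them numbered 8, 13, 9 and 6. Without Control 2, and likewise without Control 3, 0 members were called in any of the 4 comparisons, with 2.52% to 12.6% of all tested genes called higher. At an unadjusted p under 0.05 there were at most 4 members, in WT without Control 2. The direction over the members shifted too, since the median COM difference was 0.40 without Control 1 and -0.04 without Control 3. For WT the median was 0.54 without Control 1, 0.22 without Control 2 and 0.18 without Control 3.

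Single members moved by different amounts with the Control library left out. Mcm5 in WT differed from Control by 0.58 ± 0.27 (adjusted p = 0.137) with all libraries, by 1.03 ± 0.20 (adjusted p = 0.0017) without Control 1 and by 0.21 ± 0.24 (adjusted p = 0.615) without Control 3. Mki67 in WT went from 0.60 to 0.95 ± 0.12 (adjusted p = 0.000165) without Control 1 and to 0.38 ± 0.20 (adjusted p = 0.183) without Control 2. Kif23 moved least of these, at 0.81 ± 0.11 without Control 1, 0.47 ± 0.16 (adjusted p = 0.0512) without Control 2 and 0.45 ± 0.15 (adjusted p = 0.0585) without Control 3. The labels give no reason to prefer one Control library over another.

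**Figure D4:**
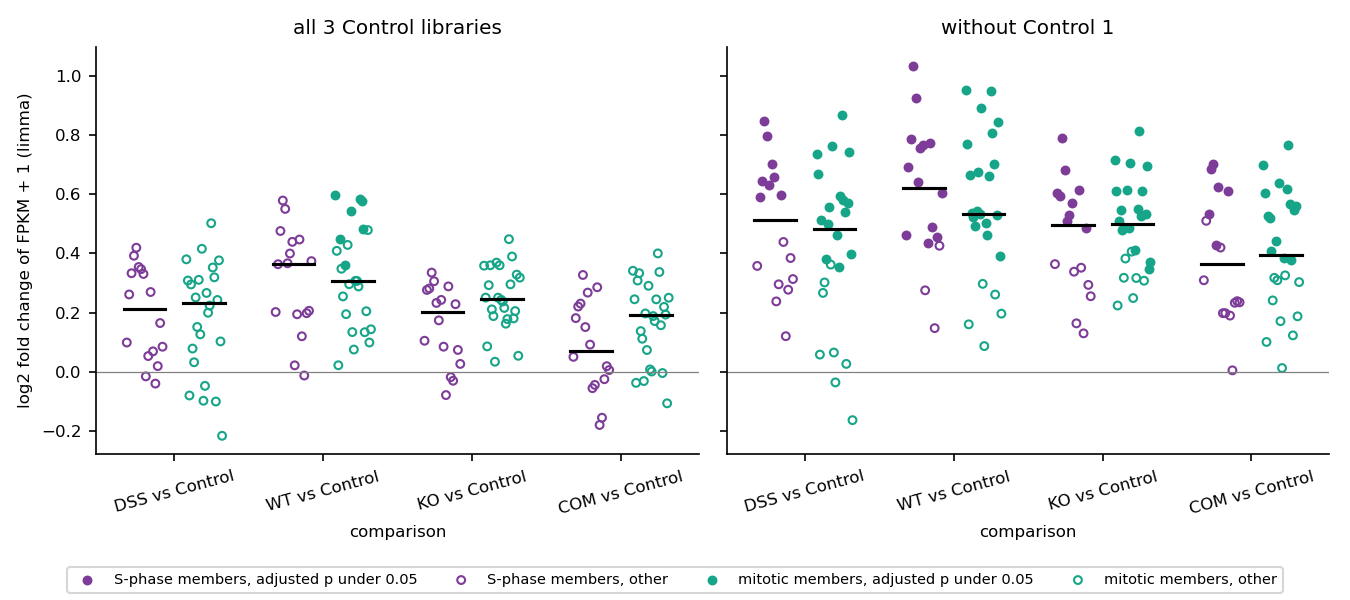
Log2 fold change of FPKM + 1 against Control (limma) of each member, with all 3 Control libraries (left) and without Control 1 (right). Filled points passed an adjusted p of 0.05, open points did not, and black lines are medians of the 16 S-phase or 24 mitotic members. With all libraries 7 members are filled, all in WT. Without Control 1 there are 20 to 32 in each comparison. Control 1 has the highest mean on both lists, so leaving it out lowers the Control level of the members. The fits without Control 2 and without Control 3, in which no member passed, are not drawn.

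The strains were next compared with the DSS group, a comparison that does not use Control. In WT against DSS, 0 of 40 members and 0 of all 13263 genes were called (limma), with 2 members higher at an unadjusted p under 0.05 (1.93% of all tested genes) and 0 lower (2.84%). The median over members was 0.11 and 38 of 40 differences were positive. The members were measured in the same libraries, so these signs are not independent. In all, 6 members were higher in WT without overlap (Cdkn3, Ube2c, Kif23, Ccna2, Tk1 and Rrm1), which is 6 of 40 against 4.48% of all tested genes, and 0 were lower without overlap, against 6.01%. The smallest p values were those of Cdkn3 (0.36 ± 0.10) and Ube2c (0.23 ± 0.11), both with an adjusted p of 1.0. The widest bounds over the members were -0.43 (Rrm2) and 0.77 (Mcm5).

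In KO against DSS, 1 member passed, Cdkn3, where 0.098% of all tested genes were called higher and 0.0679% lower. At an unadjusted p under 0.05, 5 members were higher, against 6.32% of all tested genes. Cdkn3 (chr14:46760461-46771530) encodes a dual-specificity phosphatase that removes an activating phosphate from cyclin-dependent kinases. It measured 14.5, 11.0 and 14.3 FPKM in DSS and 18.6, 20.3, 18.8 and 20.7 in KO. In WT it measured 17.6, 15.4, 16.6 and 19.5 FPKM, in COM 18.5, 18.1, 20.8 and 17.2, and in Control 16.8, 15.7 and 14.2. All 12 libraries of mice given a strain lay above all 3 of the DSS group, and Control overlapped with DSS and with WT. Of all tested genes, 0.822% lay above the DSS group in this way and 1.33% below it. Cdkn3 rose by 0.53 ± 0.10 in KO against DSS (adjusted p = 0.0399). Against DSS it differed by 0.47 ± 0.10 in COM (adjusted p = 0.122), and by 0.45 ± 0.08 in the mean of the 3 strains (adjusted p = 0.128). It was also the 1 member with a difference among the 5 groups by limma's moderated F test (adjusted p = 0.0120, with 13.9% of all tested genes called), followed by Kif23 (adjusted p = 0.0883) and Cdc20 (adjusted p = 0.0912).

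The level of Cdkn3 did not follow the other members across libraries. Control 1, the highest library for 16 members, ranked at place 11 for Cdkn3, and DSS 2 was the lowest for Cdkn3, Cenpa and Ube2c. The call in KO against DSS was lost when any 1 of 14 libraries was left out, with an adjusted p of up to 0.276 over all alternatives, while its log2 fold change stayed between 0.41 and 0.79. Without the squamous-rich libraries, Cdkn3 did not pass either. Leaving out the acinar-rich libraries DSS 1, DSS 3 and KO 3 keeps DSS 2 as the only DSS library. That fit cannot show the spread within DSS, so its call is not used. The F test kept its call in 26 of 27 alternatives, with an adjusted p of 0.0845 in the one without the squamous-rich libraries.

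Of the remaining members in KO against DSS, Ube2c (0.28 ± 0.11, adjusted p = 0.224) and the chromosomal passenger protein Birc5 (0.34 ± 0.14, adjusted p = 0.238) had the smallest p. Cdkn3, Ube2c, Ccnb2 and Tk1 were higher in KO without overlap, 4 of 40 against 7.68% of all tested genes, which is near the background. In COM against DSS 0 members were called, where 0.0151% of all tested genes were called. At an unadjusted p under 0.05, 1 member was higher (4.39% of all tested genes) and 0 lower (6.63%). Besides Cdkn3, the smallest p was that of Ccnb2 (0.25 ± 0.13, adjusted p = 0.483). Cdkn3 and Ccnb2 were higher without overlap in COM (6.67% of all tested genes), and Foxm1 and Cdc20 lower (9% of all). The mean of the 3 strains called 0 members against DSS, where 0.0151% of all tested genes were called. There 3 members were higher at an unadjusted p under 0.05, against 3.72% of all tested genes. After Cdkn3 the smallest p was that of Ccnb2 (0.27 ± 0.11, adjusted p = 0.451).

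Between strains no member was called. In KO against WT, with 0.829% of all tested genes called, 0.324% higher and 0.505% lower, 1 member was lower at an unadjusted p under 0.05 (11.1% of all tested genes). The smallest p were those of E2f1 (-0.35 ± 0.16, adjusted p = 0.224) and Kif23 (-0.28 ± 0.13, adjusted p = 0.254), and Kif23 and Ccnb1 were lower without overlap (9.4% of all tested genes). In COM against WT, with 0.00754% called, 3 members were lower at an unadjusted p under 0.05 (6.35% of all tested genes). There 38 of 40 differences were negative, with a median of -0.19 against -0.01 over all tested genes. These signs are not independent either. The smallest p were those of Cdc20 (-0.33 ± 0.13, adjusted p = 0.376) and E2f1 (-0.37 ± 0.16, adjusted p = 0.405). Cdc20, Aurka, Tk1, Bub1b and Bub1 were lower in COM without overlap, 5 of 40 against 5.69%. Cdc20 measured 16.8, 17.7, 17.7 and 15.3 FPKM in COM, all below the 19.6 FPKM of the lowest WT library. In COM against KO, with 0.0302% called, 1 member was lower at an unadjusted p under 0.05 (4.77% of all tested genes). The smallest p were those of Cenpa (-0.24 ± 0.11, adjusted p = 0.455) and Birc5 (-0.24 ± 0.13, adjusted p = 0.534), and Tk1 was lower without overlap (3.34%). Intervals in these 3 comparisons reached down to -0.89 (Mcm5 in COM against WT) and up to 0.51 (Cdc6 in COM against KO), the widest bounds over the 40 members.

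Further genes of the same processes showed the same Control split. Control 1 exceeded Control 2 and Control 3 in 40 of 44 other S-phase genes and 58 of 58 other mitotic genes, but in 9 of 26 tested G1 genes. In WT against Control, 7 of 58 other mitotic genes were called higher and 0 lower, a share not above the 14.7% of all tested genes called higher. The 4 largest were Hmmr (0.63 ± 0.17, adjusted p = 0.0175), Dlgap5 (0.51 ± 0.15, adjusted p = 0.0223), Cdc25b (0.43 ± 0.11, adjusted p = 0.0137) and the kinesin Kif14 (0.41 ± 0.14, adjusted p = 0.0496). In KO and in COM 1 of 58 was called, Cdc25b (0.46 ± 0.11, adjusted p = 0.0306, and 0.52 ± 0.11, adjusted p = 0.0142), and in DSS also only Cdc25b (0.37 ± 0.12, adjusted p = 0.0467). Cdc25b, the phosphatase that starts activation of cyclin B with Cdk1, measured 9.89, 6.53 and 6.57 FPKM in Control and 9.38 to 12.7 in the other groups. The call on its mean difference from Control (0.45 ± 0.09, adjusted p = 0.0044) held in all 27 alternatives, while the DSS call was lost in 22 of 28. Of the other S-phase genes, 1 of 44 was called in DSS against Control, Slbp, which binds histone mRNA and fell by 0.31 ± 0.10 (adjusted p = 0.0458), and 0 in WT, KO or COM. Neither list had a call in the comparisons without Control.

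The list called G1 genes here holds cyclins, kinases, inhibitors and growth arrest genes among others. In 2 of its 26 tested genes, Cdkn2b and Ccng1, the Control libraries did not overlap with any of the 15 others. Over all tested genes, the 15 others lay above Control without overlap in 4.2% and below it in 1.32%. Cdkn2b, which encodes the Cdk4 and Cdk6 inhibitor p15, fell in all 4 DSS-treated groups. It measured 29.7, 37.3 and 40.9 FPKM in Control, 18.9, 23.7 and 18.3 in DSS, 18.6 to 21.9 in WT, 17.7 to 22.8 in KO and 19.0 to 22.2 in COM. The lowest Control library lay above all 15 others. The log2 fold change was -0.79 ± 0.12 in DSS (adjusted p = 0.00142), -0.78 ± 0.11 in WT (adjusted p = 0.000627), -0.75 ± 0.11 in KO (adjusted p = 0.00279) and -0.74 ± 0.11 in COM (adjusted p = 0.00322). The 4 comparisons share the Control libraries. Each call held when any single library was left out, Control 1 included. Fitted with only the groups compared, the calls in DSS, KO and COM were lost, with an adjusted p of up to 0.0995. The fit without the acinar-rich libraries keeps DSS 2 as the only DSS library and is not used for DSS.

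Other G1 genes moved in some groups. In DSS 4 of 26 were called against Control, all lower: Cdkn2b, Gadd45a (-0.62 ± 0.20, adjusted p = 0.041), Ccng2 (-0.40 ± 0.13, adjusted p = 0.0405) and E2f5 (-0.32 ± 0.11, adjusted p = 0.0491). Of all tested genes 5.31% were called lower in that comparison. In WT 6 were lower, against 8.35% of all tested genes, and 1 higher, Ccng1 (0.19 ± 0.07, adjusted p = 0.0468). Ccng1 measured 28.2, 27.0 and 28.5 FPKM in Control and 29.1 to 35.6 in the other groups. The largest were Gadd45a, a stress-induced growth arrest gene (-0.79 ± 0.18, adjusted p = 0.00704), Cdkn2b, the antiproliferative gene Btg1 (-0.52 ± 0.15, adjusted p = 0.0224) and Ccng2 (-0.38 ± 0.12, adjusted p = 0.0285). In KO 2 were called, Cdkn2b and Btg1 (-0.63 ± 0.15, adjusted p = 0.0257), and in COM 1, Cdkn2b. Of all tested genes 1.46% were called lower in KO and 2.34% in COM. Gadd45a measured 19.3, 28.2 and 43.4 FPKM in Control and 15.4 to 24.1 elsewhere, with Control 3 the highest of all. Without Control 3 the Gadd45a difference was -0.33 in DSS (adjusted p = 0.163) and -0.50 in WT (adjusted p = 0.0266). Without Control 2 the DSS call was also lost (-0.63, adjusted p = 0.0717). None of the G1 genes was called in a comparison without Control.

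**Figure D5:**
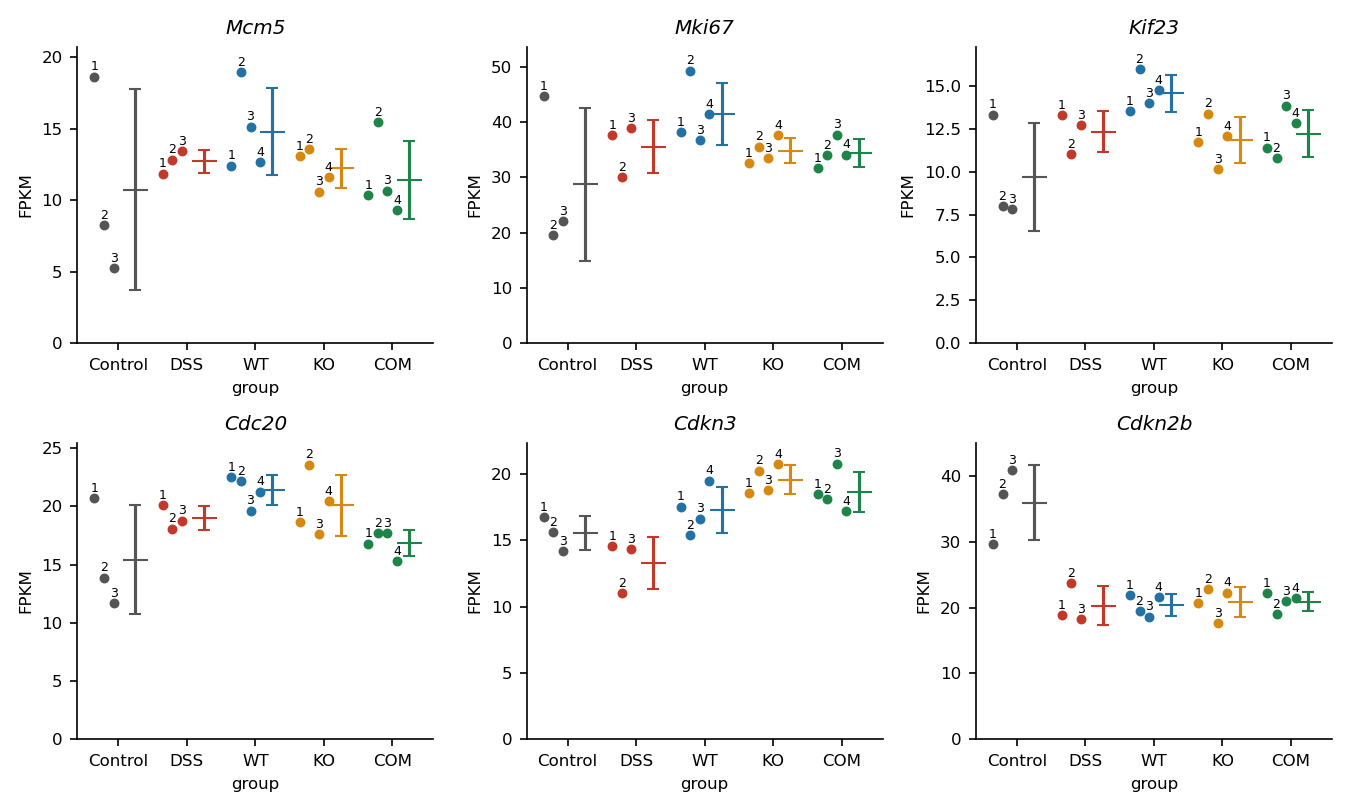
FPKM of 6 genes per library, with the replicate number above each point and the group mean with its SD beside the points. Mcm5, Mki67, Kif23 and Cdc20 show Control 1 far above Control 2 and 3, Cdkn3 is lowest in DSS, and Cdkn2b is higher in all 3 Control libraries than in the other 15.

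Markers of the crypt base gave no common direction beside the cell cycle genes. Of 13 crypt stem and progenitor markers, 1 was called lower than Control in DSS, against 5.31% of all tested genes. In WT 2 were lower (8.35% of all tested genes) and 1 higher (14.7%). In KO 1 was higher (3.69%), and in COM 3 were lower (2.34%) and 1 higher (5.26%). Lgr5, the crypt stem cell receptor, was lower in WT (-0.64 ± 0.20, adjusted p = 0.0307) and COM (-0.71 ± 0.20, adjusted p = 0.0428), while Ephb2 was higher in WT (0.27 ± 0.09, adjusted p = 0.0405), KO (0.38 ± 0.09, adjusted p = 0.0261) and COM (0.32 ± 0.09, adjusted p = 0.0453). Lgr5 was near the floor, at 1.4, 1.8 and 0.98 FPKM in Control, 0.24 to 0.92 in WT and 0.21 to 0.76 in COM. The mean over the 13 markers was 3.46 to 3.56 in Control, 3.37 to 3.66 in DSS, 3.24 to 3.50 in WT, 3.49 to 3.61 in KO and 3.27 to 3.56 in COM. Their part in the levels of the cell cycle genes was not tested.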

How the data were processed

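Whole colon RNA was sequenced with DNBSEQ technology, as stated in the labels. Expression was deposited by the authors as FPKM for 18349 genes, on build mm10 per the submitters' processing notes. The aligner, counting program, annotation and strand setting: not given in the sources used here. Read depth is unknown. Library totals were 517933 to 558590 FPKM, and at most 2.51% of values were identical in any pair. Identifiers were matched to RefSeq (GRCm38.p6), 18230 with a match and 119 without.

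Values were transformed to log2(FPKM + 1), which understates fold changes of low genes. A gene was tested if 3 or more libraries had 1 FPKM or more, which left 13263, including all 40 members. A single model of 5 groups was fitted with limma 3.58.1 (R 4.3.3), with two-sided contrasts, 95% intervals, and Benjamini-Hochberg adjustment over all tested genes. The fit was tested on simulated data. The members and lists were chosen with earlier results of these data known.

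Named were the members that passed and the 2 others with the smallest p in each comparison, and up to 4 called genes of each further list, by size of change. The members described by level, Cdkn2b, Cdc25b, Gadd45a and Ccng1 in more detail, and the crypt, macrophage, fibroblast and smooth muscle markers were chosen after their values were seen. Alternatives were a pseudocount of 0.1, no filter, a filter of 5 FPKM, other scalings (quantile, TPM), a fit of the compared groups alone, a replicate block, and leaving out libraries. Their use on genes outside the members was chosen after seeing the data.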

Additional observations from a re-analysis of the deposited data

Results flagged for a closer look

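In groups of 4 libraries, 14 of 126 sets of values had 1 library set apart from the other 3 by a gap above Dixon's 95% critical value. For a single set, chance gives such a gap about 1 time in 20. The sets come from the same libraries and from genes that move together, and the list means are built from other sets. They are thus not independent, and 14 of 126 cannot be read as an excess over chance. COM 2 was high in 6 S-phase genes. These were the helicase subunits Mcm3 (18.94 FPKM, others 12.41 to 12.9), Mcm4 (14.82, others 9.75 to 9.94) and Mcm6 (32.87, others 22.57 to 23.89), the helicase loader Cdc6 (3.82, others 2.56 to 2.71), the clamp Pcna (106.62, others 84.29 to 87.09) and cyclin E1 (Ccne1, 4.6, others 2.26 to 2.6). Its mean log2(FPKM + 1) over the 16 S-phase members was 3.89, against 3.47 to 3.52 in the other COM libraries. WT 2 was high in Mcm7 (32.49 FPKM, others 24 to 25.18) and Rrm1 (26.89, others 19.73 to 20.2). KO 2 was high in Rrm2 (14.15 FPKM, others 9.93 to 10.19) and in Tk1, the thymidine kinase (22.64, others 17.32 to 17.44). Of the mitotic members, Nusap1 was high in COM 3 (15.75 FPKM, others 14.03 to 14.28), Ccnb1 was low in KO 3 (12.84, others 14.76 to 15.07) and Bub1 was low in COM 4 (3.29, others 4.04 to 4.16). The groups of 3 libraries, Control and DSS, were not examined in this way.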

How the results depend on the processing

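The comparisons with Control depended on single libraries. With each library left out in turn, the number of members called ranged from 0 to 24 in DSS, 0 to 32 in WT, 0 to 26 in KO, 0 to 20 in COM and 0 to 28 in the mean of these 4 groups, each against Control. It ranged from 1 to 27 in the F test over 5 groups, and from 0 to 1 in KO against DSS and in the mean of the 3 strains against DSS. The highest count came without Control 1 in the comparisons with Control and the F test. The share of all tested genes called moved with the setting too. For genes higher in WT than in Control it was 14.7% with all libraries. It was 21.9% without Control 1, 12.6% without Control 2 and 8.7% without Control 3. The counts in this section are therefore not read as results about the members alone.

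In place of the 7 members in the comparison of WT with Control, 3 passed with no filter, 3 with quantile normalization, 4 without the acinar-rich libraries, and 0 with only the groups compared, without the squamous-rich libraries or without those low in Hox genes. Quantile normalization lowered the share of all tested genes called higher in WT from 14.7% to 10.7%. Without the acinar-rich libraries DSS 2 is the only DSS library, so counts that involve DSS are not given for that fit. Against the 3 in the mean of the 4 DSS-treated groups, 1 was called with no filter and 6 after rescaling to TPM. There 0 were called with quantile normalization or without the squamous-rich or low-Hox libraries. In KO against Control rescaling to TPM gave 1 call. In KO against DSS the 1 call became 0 with only the groups compared, without the squamous-rich libraries and without those low in Hox genes. The mean of the strains against DSS gave 1 call with only the groups compared. The F test gave 0 without the squamous-rich libraries.

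With the replicate number as a block, 2 members passed in WT against Control, 0 in the mean of the 4 groups against Control and 0 in KO against DSS. The numbers do not pair the samples: correlations of deviations ranged from -0.473 to 0.392 over 33 same-numbered pairs (median 0.013) and from -0.523 to 0.63 over 96 others (median -0.03). No value of a called gene changed sign under any alternative. Fitting only the groups compared was not run for the mean of 4 groups against Control or the F test. Without read counts, the precision of genes at a few FPKM is unknown. The 3 Control libraries, which differ among themselves, set the limit for every comparison with Control. Control 1 stood apart in the cell cycle genes, and Control 3 in B cell markers and distal gut Hox genes.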
